A study of Mus musculus with 8 samples.

Results

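Heat shock proteins are chaperones that fold, refold and sort other proteins. The 9 genes described here are the testis and general heat shock genes Hspa1l, Hspa2, Hspa4, Hspa4l, Hspa8, Hsp90aa1, Hsp90ab1, Hspd1 and Hspe1. They were chosen by name. These genes, and the gene lists used below, were chosen with earlier results of these data known. The array measures 8252 genes in all through a probe set with 1 symbol. Probe sets of the 9 genes were found by current or older gene symbol. Of the 9 genes, 8 had a probe set, with 14 probe sets among the 12488 of the array, and 13 of the 14 passed the filter on low signal. Hspa4 had 5 probe sets, Hspd1 and Hsp90aa1 had 2 each, and the other 5 genes had 1 each. No probe set was annotated to Hsp90ab1 alone, so it is named only.

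Testis RNA was hybridised to 8 Affymetrix MG_U74Av2 arrays of the mouse, 2 for each of 4 genotypes. The genotypes were the double knockout, Ku86(-/-);G3-Terc(-/-); the Ku86 knockout; the Terc knockout; and wild type for both genes. Ku86 is the product of Xrcc5 and binds broken DNA ends, and Terc is the RNA template of telomerase; both genes were missing from the whole animal, and the Terc-deficient line had bred for 3 generations without it, which the label writes as G3. Strain and age are not given in the sources used here. Double knockout replicate 1 was recorded as a pool of 3 mice with 15 micrograms of cRNA. Pooling and cRNA amount were not compared across the other arrays. The scan records call the material germ cells, where the labels call it testis.

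Array medians lay between 49.65 on wild type replicate 1, which was a repeated hybridisation, and 73 on Terc knockout replicate 2, in the arbitrary signal units of the array. Any pair of arrays correlated at 0.910 to 0.959 across probe sets. Double knockout replicate 1 and Ku86 knockout replicate 1 were scanned on the first of 3 days, wild type replicate 1 alone on the last, and the other 5 arrays on the day between. The chip lot changed with the day, so the 2 cannot be told apart. Xrcc5 went against the labels. Its tested probe set 96063_at read 259 and 423.3 on arrays labelled double knockout and 419.9 and 458.8 on those labelled Ku86 knockout, against 71.2 and 11.1 on those labelled Terc knockout and 46.3 and 75.6 on those labelled wild type. Whether its probes lie inside the deleted stretch is not known, so it does not check the genotype, and each genotype below is the one on the label. Terc had no probe set. Spermatid markers were the brightest of the testis lists, with Tnp2 averaging 17565, though Prm2 of elongating spermatids averaged 74.5. Of the 11 spermatocyte markers on the array, 9 were over the signal floor of 11.8 on every array, with Ldhc averaging 11400. Sycp3 of spermatocytes was at or under that floor on every array.

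Chaperones of the Hsp70 family bind short stretches of unfolded protein in a cycle driven by ATP, Hsp110 proteins such as Hspa4 and Hspa4l recharge them by nucleotide exchange, and Hsp90 takes over clients near their folded state. The mitochondrial chaperonin Hspd1 encloses a protein in a cage that Hspe1 closes as a lid. The testis holds germ-cell forms of the family: in the mouse, Hspa2 appears in meiotic spermatocytes and males without it are sterile, and Hspa1l appears in spermatids. Stress-inducible heat shock genes are driven by heat shock factors, which bind repeats of a 5-base unit called the heat shock element.

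The promoter of the chaperonin pair is shown first because both genes have an annotated start beside it, and of the member windows at hand it is where heat shock elements were found. Sequences are RefSeq's on assembly GRCm38.p6, and each window runs from 250 bases before to 50 bases after an annotated transcription start. The table of windows matched 6 of the 9 genes, with 7 windows, and held none for Hspa8, Hsp90aa1 or Hsp90ab1. The Hspe1 window lies at chr1:55087898-55088197 on the plus strand, and capitals mark merged heat shock elements, found on either strand.
Hspe1: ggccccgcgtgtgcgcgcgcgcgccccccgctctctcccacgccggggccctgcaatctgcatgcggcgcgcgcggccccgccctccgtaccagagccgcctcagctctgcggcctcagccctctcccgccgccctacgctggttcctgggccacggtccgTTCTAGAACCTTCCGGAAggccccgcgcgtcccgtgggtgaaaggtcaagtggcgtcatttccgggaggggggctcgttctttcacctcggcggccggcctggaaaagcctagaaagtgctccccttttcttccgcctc
The capitals stand 89 to 72 bases before the Hspe1 start. The window of 1 of the 2 annotated Hspd1 starts, chr1:55087883-55088182 on the minus strand, holds the same bases read the other way, 144 to 127 bases before that start.
Hspd1: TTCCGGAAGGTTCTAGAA
This Hspd1 start lies 216 bases from the Hspe1 start, head to head, and the windows overlap by 285 bases. The other annotated Hspd1 start lies past the Hspe1 start, at -95 bases on the same measure, and its window overlaps that of Hspe1 by 4 bases. A match of 3 units, GAANNTTCNNGAA or TTCNNGAANNTTC on either strand, was in 2 of the 7 member windows and in 0.603% of 32851 windows of the same length. A match of 2 units, GAANNTTC or TTCNNGAA, which every 3-unit match also contains, was in the same 2 windows and in 15.1% of all windows. The cyclic AMP response element TGACGTCA was in 0 of 7 member windows and in 1.79% of all.

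The germ-cell genes are shown beside it because none of these letters occurs in their windows. Hspa2 lies at chr12:76404120-76404419 and Hspa1l at chr17:34972453-34972752, both on the plus strand, and Hspa1l neighbours the stress-inducible genes Hspa1a and Hspa1b.
Hspa2: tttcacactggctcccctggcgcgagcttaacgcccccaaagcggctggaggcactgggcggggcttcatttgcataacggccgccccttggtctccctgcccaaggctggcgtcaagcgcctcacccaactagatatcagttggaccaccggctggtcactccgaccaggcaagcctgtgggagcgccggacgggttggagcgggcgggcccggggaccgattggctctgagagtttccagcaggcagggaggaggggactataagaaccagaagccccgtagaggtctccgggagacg
Hspa1l: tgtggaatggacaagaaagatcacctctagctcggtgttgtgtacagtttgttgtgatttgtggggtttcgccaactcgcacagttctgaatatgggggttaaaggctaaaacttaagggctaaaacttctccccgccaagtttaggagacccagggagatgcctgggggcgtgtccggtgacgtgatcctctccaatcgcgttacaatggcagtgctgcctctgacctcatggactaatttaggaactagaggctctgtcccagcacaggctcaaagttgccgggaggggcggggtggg
The windows of Hspa4 on chromosome 11, Hspa4l on chromosome 3 and the other Hspd1 start also held no match, which says only that these letters are not in these 300 bases.

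Between the genotypes, Hspa1l, Hspa4l and the brighter Hsp90aa1 set lay close together, and Hspa2 varied more from array to array. The constitutive Hsp70 gene Hspa8 read about 2 times higher in the double knockout than in wild type. So did the mitochondrial chaperonin gene Hspd1 by its brighter set, 93277_at. Neither passed the test. Hspa8 averaged 274.05 ± 15.9 signal units on arrays labelled double knockout and 123.4 ± 37.3 on those labelled wild type (SD, n = 2 each). By 93277_at, Hspd1 averaged 295.25 ± 140.5 on arrays labelled double knockout and 136.5 ± 8.06 on those labelled wild type (SD, n = 2 each). Its 2 double knockout arrays lay far apart, at 394.6 and 195.9. The other Hspd1 set, 161140_r_at, ran the other way, at -0.85 on the log2 scale in the double knockout against wild type. In limma, no member probe set passed a Benjamini-Hochberg adjusted p under 0.05 over the 7282 tested, in any of 7 comparisons. The 3 comparisons with wild type share the same 2 wild type arrays. The number of arrays limits the precision: at a change of 1 on the log2 scale, the test recovered 22% of changed probe sets in simulated data for the double knockout against wild type.

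**Figure D1:**
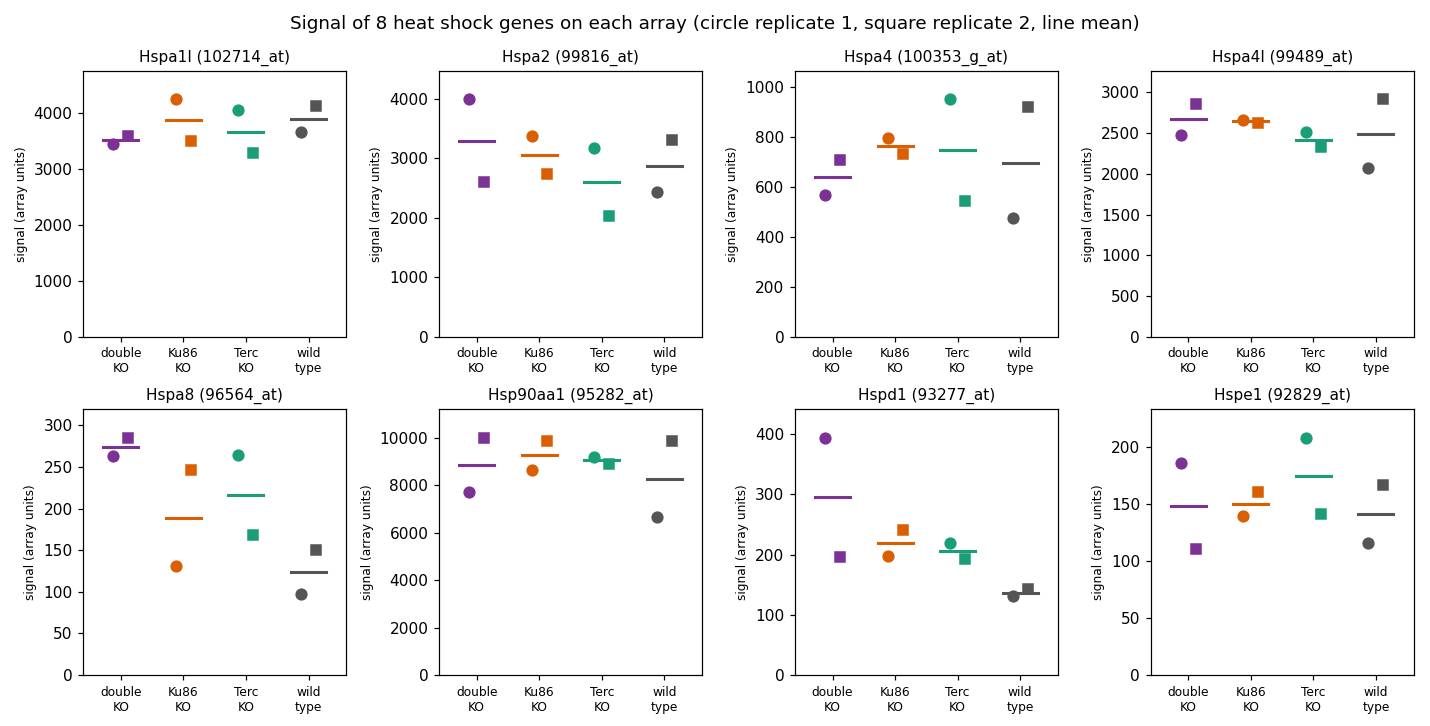
Signal of the 8 heat shock genes on each array, 1 panel per gene with its brightest probe set, genotypes along the x axis and signal in array units on the y axis from 0; circles are replicate 1, squares replicate 2 and lines the genotype means. Both double knockout points of Hspa8, 262.8 and 285.3, lie above both wild type points, 97 and 149.8, while the Hspa1l points of all genotypes share 1 narrow band.

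The germ-cell Hsp70 gene Hspa1l (102714_at) was among the steadiest transcripts on the arrays. It read 3458.5 and 3600.6 in the double knockout, 4254.1 and 3511.2 in the Ku86 knockout, 4056.5 and 3290.5 in the Terc knockout, and 3671.1 and 4137.6 in wild type. Both wild type arrays lay above both double knockout arrays, the Ku86 and Terc knockout pairs spanned a wider range than either, and the highest array was 1.29 times the lowest. The standard deviation of its log2 signal over the 8 arrays was 0.135, and 4.60% of tested probe sets had a lower one. The double knockout differed from wild type by -0.14 ± 0.173 (SE) on the log2 scale, with a 95% interval of -0.52 to 0.23 and a limma adjusted p of 0.887. The Ku86 knockout differed from wild type by -0.01 and the Terc knockout by -0.09.

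Hspa2 (99816_at), the meiotic Hsp70 that assists synaptonemal complex disassembly in mouse spermatocytes, varied more. Its signal was 3989.6 and 2591.8 in the double knockout, 3366.4 and 2734.7 in the Ku86 knockout, 3171.6 and 2021.7 in the Terc knockout, and 2423.9 and 3307.5 in wild type. All 4 genotypes overlapped, and within each of the 3 knockout genotypes replicate 1 was the higher, within wild type replicate 2. The double knockout differed from wild type by 0.18 ± 0.264 on the log2 scale (95% interval -0.39 to 0.76, limma adjusted p 0.913). That sign was not stable: the difference was -0.35 on the scan day with every genotype, -0.27 with scan day as a block, -0.13 without double knockout replicate 1 and -0.04 without wild type replicate 1. The Ku86 knockout differed by 0.10 and the Terc knockout by -0.16.

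The Hsp110 gene Hspa4l (99489_at), whose loss lowers male fertility in mice, also lay in a narrow band. It read 2482.7 and 2852.4 in the double knockout, 2662.1 and 2626 in the Ku86 knockout, 2512.9 and 2327.6 in the Terc knockout, and 2068.3 and 2915.4 in wild type. The wild type pair held both the lowest and the highest of the 8 values, so all knockout arrays lay inside the wild type span. The double knockout differed from wild type by 0.12 ± 0.191 on the log2 scale (95% interval -0.30 to 0.53, limma adjusted p 0.931). Its log2 standard deviation over the arrays was 0.160, lower than in all but 8.99% of tested probe sets.

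Its relative Hspa4, the general Hsp110 nucleotide exchange factor, had 5 probe sets that did not run together. The 100353_g_at set read 567.7 and 708.5 in the double knockout, 795.8 and 729.1 in the Ku86 knockout, 949.8 and 544.2 in the Terc knockout, and 473.9 and 919.9 in wild type. The 92571_at set read 818.5 and 771.2 in the double knockout, 698.1 and 645.6 in the Ku86 knockout, 666.8 and 475.6 in the Terc knockout, and 570.3 and 732.6 in wild type. By 92571_at the double knockout pair was the highest of the 8 arrays, and by 100353_g_at it lay inside the wild type span. Against wild type, the double knockout differences of the 5 sets on the log2 scale were -0.06 for 100353_g_at, 0.30 for 92571_at, -0.29 for 161745_f_at, 0.30 for 96594_at and 0.17 for 100352_at. The sets thus differ in sign among themselves, and none had an unadjusted p under 0.05 in limma in any of the 7 comparisons. Endings such as _f and _g mark sets whose probes may also match related transcripts.

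**Figure D2:**
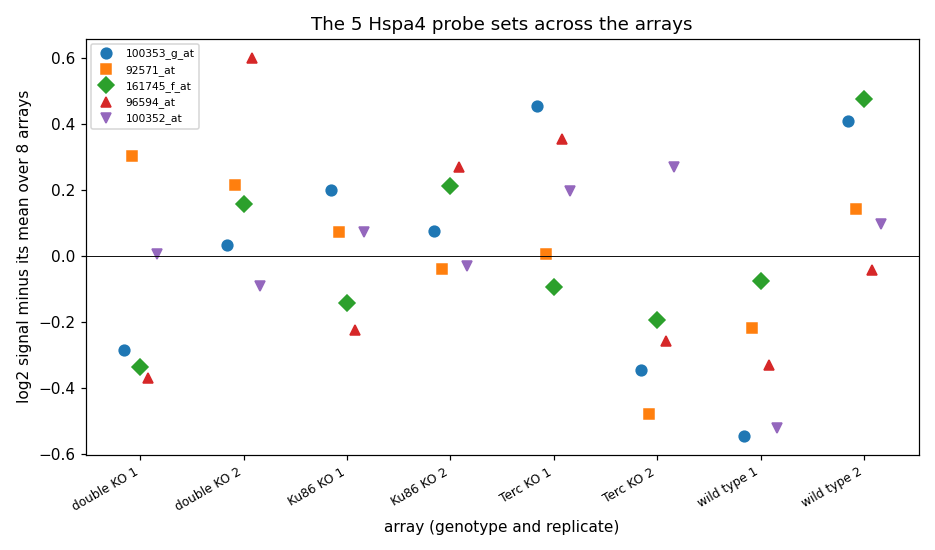
The 5 Hspa4 probe sets on each array, as log2 signal minus the set's own mean over the 8 arrays (y axis), with arrays by genotype and replicate along the x axis and 1 colour per set. The wild type pair of 100353_g_at (473.9 and 919.9) spans both double knockout values of that set (567.7 and 708.5), whereas for 92571_at the double knockout pair is the highest of the 8 arrays.

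Hspa8 (96564_at), the constitutively expressed cytosolic Hsp70 known as Hsc70, gave the largest genotype difference of the members. It read 262.8 and 285.3 in the double knockout, 131.1 and 246.5 in the Ku86 knockout, 264.4 and 167.7 in the Terc knockout, and 97 and 149.8 in wild type. Both double knockout and both Terc knockout arrays lay above both wild type arrays, while Ku86 knockout replicate 1 fell between the wild type values. The double knockout differed from wild type by 1.18 ± 0.359 on the log2 scale, which is 2.27-fold, with a 95% interval of 0.40 to 1.97. Its unadjusted p was 0.00649 and its adjusted p 0.395 in limma. The Terc knockout differed from wild type by 0.80 (1.75-fold, unadjusted p 0.0449, adjusted p 0.672 in limma), and the Ku86 knockout by 0.58 (unadjusted p 0.134, adjusted p 0.802 in limma).

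Read over all 8 arrays, Hspa8 averaged 245.05 ± 52.6 on arrays labelled Terc knockout, both Ku86 genotypes together, and 156.1 ± 64.1 on those with Terc (SD, n = 4 each). The averaged Terc difference was 0.71 ± 0.254 on the log2 scale (unadjusted p 0.0168, adjusted p 0.904 in limma), and the averaged Ku86 difference was 0.48 ± 0.254 (unadjusted p 0.0845, adjusted p 0.910 in limma). The averaged Terc difference was 0.55 without wild type replicate 1 (unadjusted p 0.0712 in limma) and 0.55 with scan day as a block (unadjusted p 0.0540). It was 0.35 on the scan day with every genotype, and its unadjusted p was under 0.05 in 10 of 18 alternatives. The interaction was -0.20 with an unadjusted p of 0.704 in limma, so a departure from adding the 2 differences was not detected. Wild type replicate 1, the array with the lowest median, had the lowest Hspa8 signal. Without it the double knockout difference was 0.87 (unadjusted p 0.0659 in limma), and the Terc knockout difference was 0.49 (unadjusted p 0.271). On the scan day that held every genotype, the double knockout difference was 0.93 on 1 array per genotype for all but the Terc knockout, and with scan day as a block it was 1.13.

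The brighter of the Hsp90aa1 sets (95282_at), for the inducible Hsp90 alpha that mouse spermatocytes need to complete meiosis, was close to level. It read 7718 and 10024.9 in the double knockout, 8665.6 and 9892.3 in the Ku86 knockout, 9213.4 and 8911.5 in the Terc knockout, and 6666 and 9879.6 in wild type. Only double knockout replicate 2 and Ku86 knockout replicate 2 lay above the wild type span, and wild type replicate 1 was the lowest array. The double knockout differed from wild type by 0.12 ± 0.197 on the log2 scale (95% interval -0.31 to 0.55, limma adjusted p 0.936). The Ku86 knockout differed by 0.19 and the Terc knockout by 0.16. The other set, 161869_i_at, was the member below the filter and was not tested; it read 7.1 and 2.8 in the double knockout, 20.9 and 13.1 in the Ku86 knockout, 14.1 and 17.7 in the Terc knockout, and 18.3 and 31.8 in wild type.

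Of the mitochondrial pair, Hspd1 and Hspe1, whose adjoining starts are described above, Hspd1 showed the larger differences from wild type. Hspd1 (93277_at), the Hsp60 chaperonin, read 394.6 and 195.9 in the double knockout, 197.6 and 240.2 in the Ku86 knockout, 218.8 and 192.3 in the Terc knockout, and 130.8 and 142.2 in wild type. All 6 knockout arrays lay above both wild type arrays, and double knockout replicate 1 lay far above the rest. The double knockout differed from wild type by 1.03 ± 0.323 on the log2 scale, which is 2.04-fold, with a 95% interval of 0.32 to 1.73, an unadjusted p of 0.0081 and an adjusted p of 0.402 in limma. The Ku86 knockout differed from wild type by 0.68 (unadjusted p 0.0589 in limma) and the Terc knockout by 0.59 (unadjusted p 0.0939). Without double knockout replicate 1 the double knockout difference was 0.52, without double knockout replicate 2 it was 1.53, and on the scan day with every genotype it was 0.46.

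The averaged Ku86 difference of Hspd1 was 0.56 ± 0.229 on the log2 scale (unadjusted p 0.0316, adjusted p 0.910 in limma), from means of 257.075 ± 93.9 on arrays labelled Ku86 knockout and 171.025 ± 41.6 on those with Ku86 (SD, n = 4 each). The averaged Ku86 difference was 0.30 without double knockout replicate 1, 0.34 with scan day as a block (unadjusted p 0.278 in limma) and 0.53 without wild type replicate 1. Its unadjusted p in limma was under 0.05 in 7 of 18 alternatives. The averaged Terc difference was 0.47 ± 0.229 (unadjusted p 0.0624 in limma), 0.22 without double knockout replicate 1 and 0.12 on the scan day with every genotype. The other Hspd1 set, 161140_r_at, ran the other way, at 31 and 76.4 in the double knockout, 138.6 and 32 in the Ku86 knockout, 59 and 40.4 in the Terc knockout, and 78.7 and 97.6 in wild type. Its double knockout difference was -0.85 ± 0.655 with a 95% interval of -2.28 to 0.58, and its highest array was 4.47 times its lowest, so the 2 sets disagree and the direction of Hspd1 rests on 93277_at alone. Hspe1 (92829_at), the Hsp10 lid, read 186.2 and 110.7 in the double knockout, 139.9 and 160.4 in the Ku86 knockout, 208.3 and 140.9 in the Terc knockout, and 116.1 and 166.5 in wild type. Its genotypes overlapped, and the double knockout difference was 0.05 ± 0.340 (95% interval -0.70 to 0.79, limma adjusted p 0.983). A different response of the 2 genes was not tested.

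**Figure D3:**
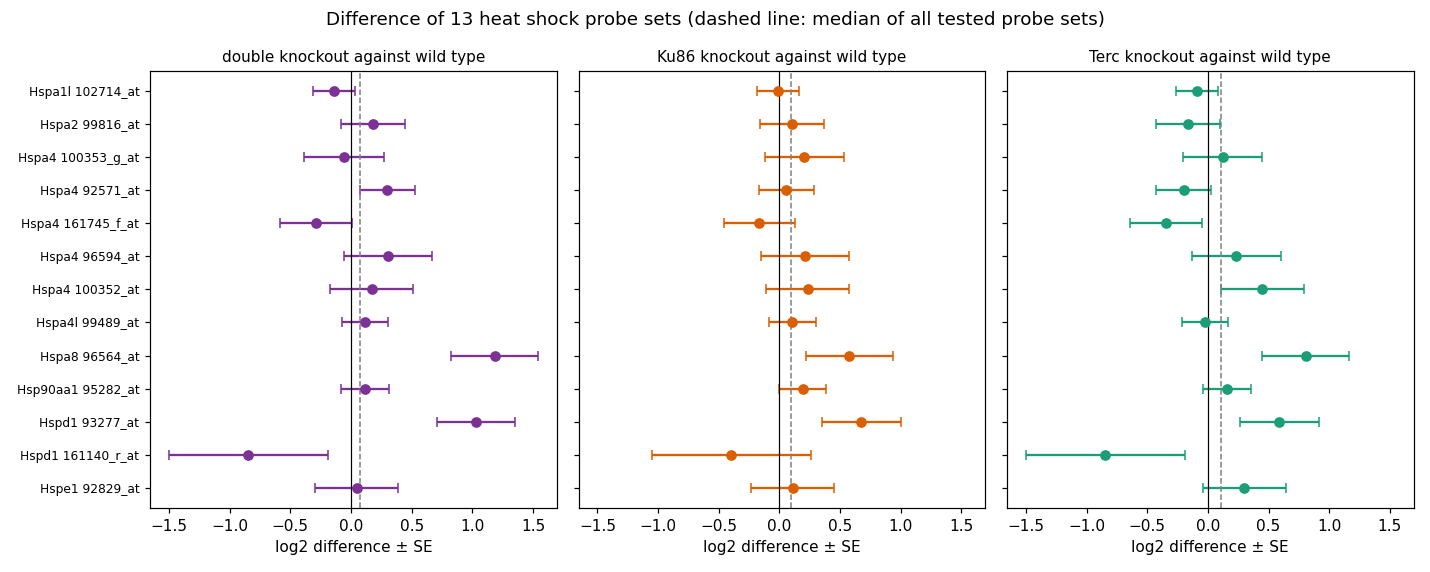
Difference of each of the 13 tested heat shock probe sets on the log2 scale (x axis, point with SE), 1 panel per comparison with wild type, with the zero line solid and the median of all 7282 probe sets dashed. The Hspa8 set at 1.18 and the Hspd1 set 93277_at at 1.03 lie farthest to the right in the double knockout panel, and the other Hspd1 set at -0.85 farthest to the left.

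Counted over the comparisons, 0 of 13 member probe sets passed the adjusted threshold of 0.05 in limma in the double knockout against wild type, where 0.0275% of all tested probe sets did. At an unadjusted p under 0.05 it was 2 of 13, Hspa8 and Hspd1 (93277_at), both higher, beside 8.6% of all. In the Ku86 knockout 0 of 13 passed either threshold, beside 0.0412% of all at the adjusted and 5.9% at the unadjusted one. In the Terc knockout 0 of 13 passed the adjusted threshold, beside 0.0275% of all, and 1 of 13, Hspa8, the unadjusted one, beside 7.06%. The members' counts were not tested against these shares.

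For the averaged Ku86 difference, 0 of 13 passed the adjusted threshold and 1 of 13 (Hspd1) the unadjusted one in limma, beside 0% and 5.15% of all probe sets. For the averaged Terc difference the same counts were 0 and 1 (Hspa8), beside 0.0137% and 5.29%. The interaction gave 0 and 0, beside 0% and 5.04%, and any difference among the 4 genotypes gave 0 and 1 (Hspa8, unadjusted p 0.0401), beside 0% and 5.01%. The median log2 difference of the 13 member probe sets was 0.116 in the double knockout, 0.108 in the Ku86 knockout and 0.123 in the Terc knockout, each against wild type. Over all tested probe sets the medians were 0.0754 in the double knockout, 0.0954 in the Ku86 knockout and 0.107 in the Terc knockout, so a small positive difference was the common case on these arrays. Centring each array on its median shifted the median of all probe sets in the double knockout against wild type by -0.27 on the log2 scale, and the small positive differences of Hspa2, Hspa4l and Hsp90aa1 were then negative, at -0.08, -0.15 and -0.15, while Hspa8 stood at 0.92 and Hspd1 at 0.76.

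The members also differed in how evenly they were expressed. Among the tested sets, the log2 standard deviation over the 8 arrays was 0.135 for Hspa1l, 0.160 for Hspa4l, 0.205 for Hsp90aa1, 0.312 for Hspa2, 0.316 for Hspe1, 0.488 for Hspd1 and 0.574 for Hspa8. The median was 0.312 over the 13 member sets and 0.314 over all tested probe sets. Spread narrows at high signal: the 350 probe sets with a mean of at least 2000 had a median of 0.177, which is above the value of Hspa1l and Hspa4l and below that of Hsp90aa1 and Hspa2.

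The patterns across the 8 arrays nearest to Hspa8, by the mean absolute difference of centred log2 values, were those of Pgrmc1 at 0.120 and Ndfip1 at 0.123, where the median over 6536 probe sets was 0.514. Pgrmc1, a membrane haem-binding protein, read 260.7 and 327.5 in the double knockout, 103 and 224.4 in the Ku86 knockout, 235.5 and 178.2 in the Terc knockout, and 93.7 and 141.3 in wild type. Ndfip1, an adaptor of ubiquitin ligases, read 265.4 and 305.9 in the double knockout, 133.2 and 250.7 in the Ku86 knockout, 306.2 and 206 in the Terc knockout, and 121 and 186.7 in wild type. Nearest to Hspd1 were the ubiquitin ligase gene Pja1 and Wdr92, both at 0.155, where the median was 0.412. Pja1 read 744.4 and 502.1 in the double knockout and 279.8 and 320.4 in wild type, and Wdr92 read 1716.9 and 1152.9 in the double knockout and 833.1 and 995.8 in wild type. As with Hspd1, double knockout replicate 1 was the highest array for both. Both genes were picked for likeness on these same 8 arrays, so this gives no separate support for the Hspd1 values.

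The partners of these chaperones were read from lists of cochaperones, J-domain proteins, small heat shock proteins, other Hsp70 and Hsp90 genes, chaperonin subunits and heat shock factors. Of 107 genes, 78 were on the array and 69 were tested, and 0 passed the adjusted threshold in any comparison in limma. Against wild type at an unadjusted p under 0.05, 5 of 69 were past it in the double knockout (4 higher and 1 lower, 7.25%), 4 of 69 in the Ku86 knockout (3 higher and 1 lower, 5.80%) and 3 of 69 in the Terc knockout (1 higher and 2 lower, 4.35%). Over all tested probe sets the shares were 8.6% in the double knockout, 5.9% in the Ku86 knockout and 7.06% in the Terc knockout. The partners' shares were near these and were not tested against them. The median difference was 0.00723 in the double knockout, 0.00971 in the Ku86 knockout and -0.0466 in the Terc knockout, under the medians of all probe sets given above. The 5 of the double knockout were Fkbp5, Hspa5, Hsp90b1, Dnajc8 and, lower, Bag6. The mitochondrial Hsp70 gene Hspa9 differed from wild type by 0.27 there and the inducible Hsp110 gene Hsph1 by 0.40 on the log2 scale, neither with an unadjusted p under 0.05 in limma, and none of the 13 tested cytosolic chaperonin and prefoldin genes was past it.

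Fkbp5, an immunophilin cochaperone of Hsp90, had the smallest unadjusted p of the partners over the 4 genotypes. It read 290.3 and 272.4 in the double knockout, 114.7 and 162.8 in the Ku86 knockout, 179.2 and 137 in the Terc knockout, and 139.7 and 166.6 in wild type. The double knockout pair lay above the other 6 arrays, at 0.88 ± 0.284 on the log2 scale over wild type (unadjusted p 0.00918, adjusted p 0.423 in limma), and the interaction was 1.00 (unadjusted p 0.0282, adjusted p 0.875). Without wild type replicate 1 the double knockout difference had an unadjusted p of 0.0537 in limma.

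Hspa5 and Hsp90b1, of the endoplasmic reticulum, read higher on arrays labelled Ku86 knockout, without passing the adjusted threshold. Hspa5, the Hsp70 of that compartment, read 1990.7 and 1528.8 in the double knockout, 1604.8 and 1674.5 in the Ku86 knockout, 1396.8 and 1051.3 in the Terc knockout, and 1156.7 and 1354.2 in wild type. All 4 arrays labelled Ku86 knockout lay above all 4 with Ku86, and the averaged Ku86 difference was 0.46 ± 0.147 on the log2 scale (unadjusted p 0.00922, adjusted p 0.900 in limma). Hsp90b1, the Hsp90 there, read 1792.4 and 1724.4 in the double knockout, 1719.3 and 1740.6 in the Ku86 knockout, 1515.7 and 1213 in the Terc knockout, and 885.6 and 1483.3 in wild type. Its groups by Ku86 label did not overlap either, and the averaged difference was 0.48 (unadjusted p 0.0134 in limma). Both arrays of the first scan day carry the Ku86 knockout label: with scan day as a block the difference was 0.29 for Hsp90b1 (unadjusted p 0.0806 in limma) and 0.32 for Hspa5 (unadjusted p 0.0951). Without wild type replicate 1 it was 0.30 for Hsp90b1. The J-domain proteins Dnajb11 and Dnajc10 of the same compartment overlapped between the Ku86 labels, with unadjusted p of 0.110 for Dnajb11 and 0.0812 for Dnajc10 in limma.

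Hsbp1, which binds and restrains heat shock factor 1, read lower in the knockouts without passing the adjusted threshold. It read 783.8 and 1001.3 in the double knockout, 771.1 and 884.3 in the Ku86 knockout, 872.4 and 743.6 in the Terc knockout, and 1214.3 and 1109.4 in wild type. All 6 knockout arrays lay below both wild type arrays. The difference was -0.53 in the Terc knockout (unadjusted p 0.0243, adjusted p 0.672 in limma) and -0.49 in the Ku86 knockout (unadjusted p 0.0335, adjusted p 0.802). In the double knockout it was -0.39 (unadjusted p 0.0810, adjusted p 0.644 in limma). Without wild type replicate 1 the differences were -0.46 in the Terc, -0.43 in the Ku86 and -0.32 in the double knockout. The probe sets of Bag6, a chaperone of hydrophobic proteins, disagreed. The brightest gave -0.48 in the double knockout (unadjusted p 0.0371 in limma), -0.35 in the Ku86 knockout, where the pairs overlapped, and -0.56 in the Terc knockout (unadjusted p 0.0185). The other tested sets ran from -0.28 to 0.07 in the double knockout, -0.14 to 0.51 in the Ku86 knockout and -0.46 to 0.33 in the Terc knockout. The heat-inducible Hspa1a, a next-door neighbour of Hspa1l, read 120.1 and 100.7 in the double knockout, 67.9 and 104.1 in the Ku86 knockout, 95.1 and 130.9 in the Terc knockout, and 165.4 and 108.2 in wild type, with no knockout array above both wild type arrays.

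The Sertoli and peritubular marker lists, like Hspa8 and Hspd1, had their highest mean in the double knockout and their lowest in wild type. So did the spermatogonial, Leydig and epididymal lists, so this order was not particular to the Sertoli and peritubular lists. The summed signal of the Sertoli cell markers, of which 17 were on the array and 16 were tested, ran from 5202.2 to 6157.4 in the double knockout, 3074.3 to 4601 in the Ku86 knockout and 3768.7 to 4284.8 in the Terc knockout, against 2769 to 2875 in wild type. The peritubular markers, 12 on the array, summed to 3010.8 to 3340.2 in the double knockout, 2240.5 to 2832.3 in the Ku86 knockout and 2564.9 to 2693.6 in the Terc knockout, against 1644.4 to 1889.1 in wild type. In the double knockout, 10 of 16 tested Sertoli genes and 7 of 11 tested peritubular genes had an unadjusted p under 0.05 in limma, all higher, beside 8.6% of all tested probe sets; the medians were 0.80 for the Sertoli and 1.09 for the peritubular genes on the log2 scale, and none passed the adjusted threshold. Of the Leydig genes, 0 of 6 tested had an unadjusted p under 0.05 in the double knockout in limma, and the 8 Leydig markers on the array summed to 2039 to 2988.6 in the double knockout, 1819.7 to 2367.5 in the Ku86 knockout and 1877.8 to 2759.2 in the Terc knockout, against 1887.4 to 1994.5 in wild type. Neither the Sertoli nor the peritubular list had a marker at the floor on every array.

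The spermatogonial markers (10 on the array) summed to 1380.3 to 1647.2 in the double knockout, 985.9 to 1256.7 in the Ku86 knockout, 1182.6 to 1270.9 in the Terc knockout and 930.8 to 1033.1 in wild type. The round spermatid markers (12) summed to 55467.3 to 58705.5 in the double knockout, 59767.9 to 60859 in the Ku86 knockout, 58468.3 to 64440.9 in the Terc knockout and 61812.8 to 63272.1 in wild type. The spermatocyte markers (11) summed to 16906.6 to 17672.4 in the double knockout, 16721.9 to 17238.5 in the Ku86 knockout, 16416.9 to 20593.4 in the Terc knockout and 17303.8 to 19481.6 in wild type. The macrophage markers (10) summed to 830.4 to 941.6 in the double knockout, 818.8 to 885.3 in the Ku86 knockout, 883.8 to 953.5 in the Terc knockout and 832.1 to 834.1 in wild type. The elongating spermatid markers (9) summed to 70362.5 to 75119.4 in the double knockout and 73819.4 to 75158.7 in the Ku86 knockout. In the Terc knockout they summed to 75645.2 to 81444.9, and in wild type to 72720.9 to 80287.1. The epididymal markers (4, of which 1 was tested) summed to 89 to 140.3 in the double knockout and 97.6 to 111.3 in the Ku86 knockout. They summed to 92.4 to 120 in the Terc knockout and 51.8 to 127.4 in wild type. The part of any of these marker levels in the Hspa8 and Hspd1 values was not tested. In RNA from mixed cells, a change in the number of cells of a type and a change in RNA per cell cannot be told apart.

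**Figure D4:**
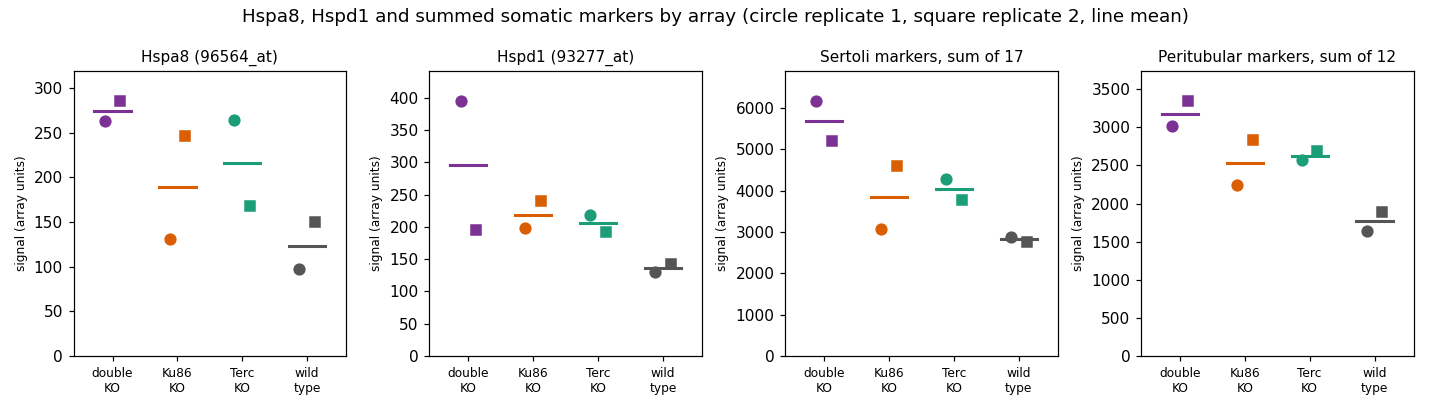
Signal of Hspa8 and of Hspd1 (93277_at) and summed signal of the Sertoli and peritubular marker lists on each array, with genotypes along the x axis and array units on the y axis; circles are replicate 1, squares replicate 2 and lines the genotype means. In all 4 panels the wild type mean is the lowest and the double knockout mean the highest.

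**Figure D5:**
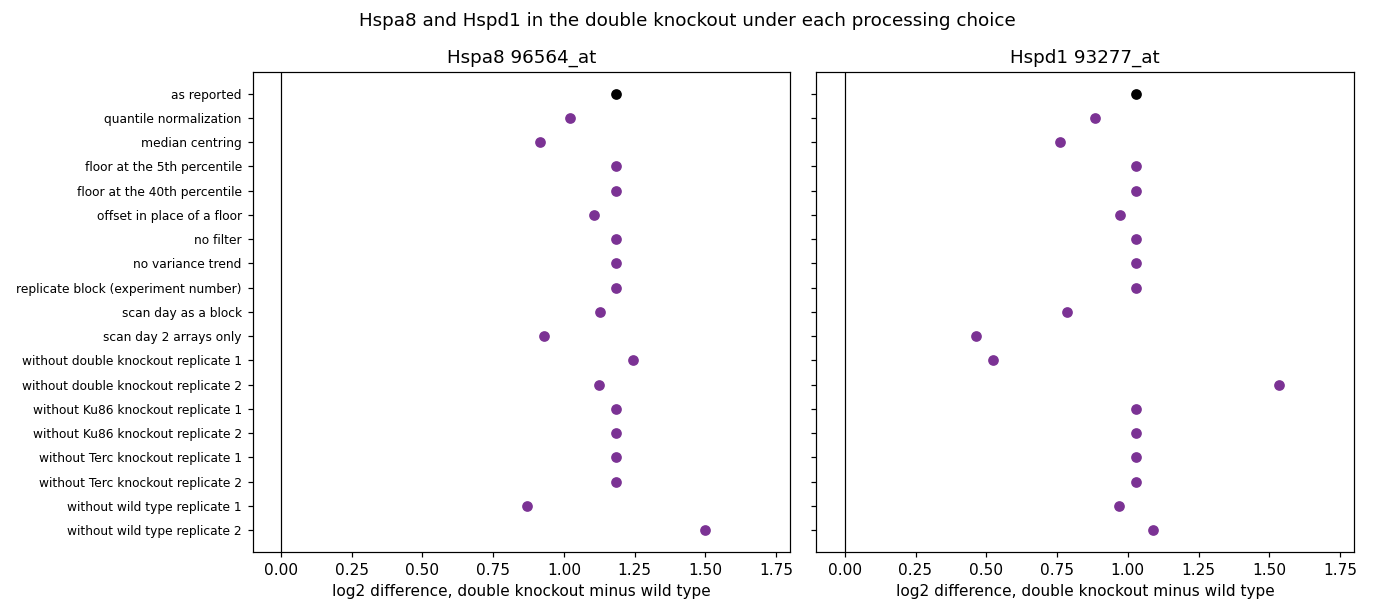
Difference between the double knockout and wild type on the log2 scale (x axis) for Hspa8 and for Hspd1 (93277_at) under each processing choice, 1 choice per line, with the reported value in black. Hspa8 ran from 0.87 to 1.50 and Hspd1 from 0.46 to 1.53, all above 0.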

How the data were processed

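Total RNA from testis was measured on 8 arrays, and the deposited intensity of each of 12488 probe sets was analysed. The authors deposited them on a linear scale, and means trimmed by 2% at each end lay between 199.5 and 199.9 on every array; the sources used here do not name the software that summarised probes. A floor of 11.8 signal units, the pooled 20th percentile, was applied before log2 was taken. The 66 control probe sets and 5140 dim ones (mean log2 signal below that of 38.1, the pooled 40th percentile) were left out, and 7282 were tested. Of all probe sets, 10855 had 1 gene symbol, 396 several and 1237 none; symbols came from the platform annotation, updated by gene ID.

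One mean per genotype was fitted with limma 3.58.1 in R 4.3.3 (eBayes with a trend), with 4 residual and 7.77 prior degrees of freedom. The 7 comparisons were two-sided, with Benjamini-Hochberg adjustment over all tested probe sets and calls at an adjusted p under 0.05. Whether the 2 arrays of a genotype came from separate animals is not shown here. The p-values rest on the spread between the 2 arrays of each genotype, pooled over the 4 genotypes. That spread was moderated by the spread of the other tested probe sets. Members and lists were chosen with earlier results of these data known. All members are named; list genes are named from the smallest unadjusted p of the test over the 4 genotypes, up to 6 per list. Nearest patterns are given for members whose genotype means ranged over more than 1 on the log2 scale. The fit was tested on simulated data, where it called 71% of probe sets changed by 2 on the log2 scale, with 4 false calls. Alternatives covered normalization, floor, filter, variance trend, blocks, scan day and each array left out.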

Additional observations from a re-analysis of the deposited data

Results flagged for a closer look

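Among 52 groups of 4 arrays examined, 2 held a value set far apart from its group, and chance gives about 1 in 20 such groups. On the 4 arrays labelled Terc knockout, Hspd1 (93277_at) read 394.6 in double knockout replicate 1, and the nearest other value was 218.8. On the 4 arrays labelled with Ku86, the Hspa4 set 161745_f_at read 258 in wild type replicate 2, and the nearest other value was 175.7.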

How the results depend on the processing

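Of 1404 recomputed differences of member probe sets, 1288 stayed within the spread between replicates of the reported value and 116 moved by more, mostly on scan day 2 alone (24), under median centring (22) and with scan day as a block (18). None crossed the adjusted threshold. The sign turned in 186, none of them among values with an unadjusted p under 0.05. No member was called in any comparison under any processing choice or with any 1 array left out, where counts ran from 0 to 0. The experiment number as a replicate block also gave 0 calls, with a lowest adjusted p of 0.308 in the double knockout; replicate 1 deviations correlated between genotypes by 0.0126 to 0.254, above 0.1 in 3 of 6 pairs, so the numbers were not taken as pairing the arrays. The highest was between double knockout and Ku86 knockout replicate 1, which also share scan day and lot. The next were 0.220 with Terc knockout replicate 1 and 0.171 with wild type replicate 1. Both were also with double knockout replicate 1, which shares neither scan day nor lot with those 2 arrays. Counted at an unadjusted p under 0.05 instead, member calls were 2 for the double knockout, 1 for the Terc knockout, 1 for the averaged Ku86 difference, 1 for the averaged Terc difference and 1 for any difference. With 1 array left out these ran from 1 to 2 in the double knockout, 0 to 2 in the Terc knockout, 0 to 3 in the averaged Ku86 difference, 0 to 2 in the averaged Terc difference and 0 to 1 in any difference, and from 0 to 2 in the Ku86 knockout, where 0 were counted with all arrays. The lowest adjusted p of a member in any setting was 0.206, in the double knockout. In the double knockout Hspa8 had an unadjusted p under 0.05 in 17 of 18 alternatives, with adjusted p from 0.206 to 0.999, and Hspd1 in 14 of 18, with adjusted p from 0.278 to 1.00. Calls over all probe sets ran in the double knockout from 0 to 30 against 2 as reported, in the Ku86 knockout from 0 to 15 against 3, in the Terc knockout from 0 to 17 against 2, in the averaged Ku86 difference from 0 to 20 against 0, in the averaged Terc difference from 0 to 8 against 1, in the interaction from 0 to 9 against 0 and in any difference from 0 to 43 against 0; the cause was not tested. Signal near the floor limits Hsp90aa1 161869_i_at and Hspd1 161140_r_at, and 2 arrays a genotype limit every interval.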

Other observations

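Among the other stress genes, Hspb2, a small heat shock protein of muscle, read 120.1 and 216.3 in the double knockout, 233.7 and 163.2 in the Ku86 knockout, 196.9 and 195.9 in the Terc knockout, and 133.5 and 81.2 in wild type. The Ku86 knockout difference was 0.91 on the log2 scale (unadjusted p 0.026, adjusted p 0.802 in limma). The Terc knockout difference was 0.92 (unadjusted p 0.0249, adjusted p 0.672 in limma). The double knockout difference was 0.63 (unadjusted p 0.103 in limma), and its pair overlapped the wild type pair. The heat shock factor gene Hsf2 read 218.2 and 110.6 in the double knockout, 129.5 and 100.7 in the Ku86 knockout, 108 and 140 in the Terc knockout, and 158.8 and 191.5 in wild type. Dnajb3, a J-domain protein of spermatids in the mouse, read 6128.8 and 6369 in the double knockout, 6171.9 and 6124.3 in the Ku86 knockout, 6843.2 and 7168.6 in the Terc knockout, and 7757.4 and 6867.2 in wild type.

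The erythroid markers (3 on the array) summed to 1583 to 1775.6 in the double knockout, 1209.1 to 2760.4 in the Ku86 knockout, 1888.5 to 3575.6 in the Terc knockout and 2660.2 to 3450.8 in wild type.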
